A study of Mus musculus with 6 samples.

Results

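T cell receptor V segments were described in leukocytes sorted from MC38 tumours of control mice and of mice with an inducible Ctcf knockout in Treg cells. The members were all genes of the expression matrix whose symbols start with Trav or Trbv, 163 of 32285 genes (128 Trav and 35 Trbv), together with the V segment names of the productive receptor contigs. The contigs held 110 such names, 88 TRAV and 22 TRBV, of which 109 were also genes of the matrix. At least 1 UMI was found for 140 of the 163 genes. A UMI is a molecular identifier that counts a transcript once. Usage was counted in 3 classes of receptor-bearing cells gated by markers, namely CD8 T cells (9214 cells), conventional CD4 T cells (1270) and Treg cells (1511), out of 37221 kept cells, of which 15476 carried a productive contig.

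MC38, a mouse colon adenocarcinoma line with intact Ctcf, had been grown under the skin for 25 days. Live CD45+ cells were then profiled by droplet 5′ RNA sequencing with enrichment of receptor transcripts. The control group (ctr, n = 3) had wild-type Ctcf in its Treg cells, and the knockout group (cko, n = 3) had lost Ctcf in them after tamoxifen. The labels name no strain, age, Cre driver or deleted exon, nor which agents the controls received. They call the samples biological replicates without naming animals, so the p-values reflect variation among the samples sequenced.

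A T cell receptor is a pair of an alpha and a beta chain, and each chain is made in the thymus by joining 1 V segment to a J segment, with a D segment between them in the beta chain. The V segment encodes the loops CDR1 and CDR2, which mostly touch the MHC molecule, and the V to J join encodes CDR3, which mostly touches the peptide. CD8 T cells read peptides on MHC class I and CD4 T cells on MHC class II. A developing T cell can rearrange its alpha chain again, and each further round joins a V segment upstream of the one used before to a J segment downstream of the one used before. Tregs, a CD4 lineage defined by Foxp3, suppress immune responses. All descendants of a cell carry its receptor, so a count of cells weighs each V segment by clone size. A count of clonotypes, in which each clonotype of a sample and class counts once, is meant not to. A clone split over several clonotype names, for example where a chain was not read, still counts more than once.

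The sequences that carry the findings on single receptors are shown first. A CD8 receptor recurred in all 6 samples with the same translated CDR3 in both chains. Its alpha chain joined a TRAV16 copy to TRAJ43 and its beta chain joined TRBV12-1 to TRBJ2-5. Capitals mark the bases of the CDR3 that varied among its nucleotide versions, of which 5 of 8 alpha and 5 of 6 beta versions are given, read 5′ to 3′ from the contigs.
Alpha of cko replicates 1 and 3: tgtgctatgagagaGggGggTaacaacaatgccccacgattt
Alpha of ctr replicates 2 and 3: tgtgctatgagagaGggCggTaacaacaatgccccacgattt
Alpha of ctr replicate 1: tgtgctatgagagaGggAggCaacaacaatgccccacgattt
Alpha of ctr replicate 1, second version: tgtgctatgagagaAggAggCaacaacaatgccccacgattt
Alpha of cko replicate 2: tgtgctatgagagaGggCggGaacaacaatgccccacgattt
Beta of cko replicates 1 and 3 and ctr replicate 3: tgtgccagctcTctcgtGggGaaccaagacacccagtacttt
Beta of all 3 cko samples: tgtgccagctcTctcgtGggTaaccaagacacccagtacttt
Beta of ctr replicate 1: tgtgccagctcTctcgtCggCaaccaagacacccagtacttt
Beta of ctr replicate 1, second version: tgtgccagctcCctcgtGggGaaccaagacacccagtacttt
Beta of ctr replicate 2: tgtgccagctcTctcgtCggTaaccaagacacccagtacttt

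Over the 42 bases, 3 positions varied in each chain, and every version of a chain encoded the same 14 residues. The largest clonotype of ctr replicate 3 had one of these alpha chains but another beta chain with TRBV12-1 and TRBJ2-5. It is shown with capitals at the 4 of 42 bases that differ from the first beta sequence above.
Beta of the largest clonotype of ctr replicate 3: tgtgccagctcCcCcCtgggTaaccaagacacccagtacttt

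Some V names cannot be told apart by the loops they encode. The 110 names held 91 distinct pairs of CDR1 and CDR2, and 35 names fell into 16 groups that shared both, among them copies that arose when the mouse Trav cluster was duplicated and that carry D or N in their names. TRAV16 and TRAV16N had the same CDR1 and CDR2 bases, and TRAV16D-DV11 differed from them at 1 base of CDR1, shown in capitals.
CDR1 of TRAV16 and TRAV16N: acccGggacagttcttacttc
CDR1 of TRAV16D-DV11: acccAggacagttcttacttc
The composite name TRBV12-2+TRBV13-2, given by the contig annotation, stood for TRBV13-2. In the next lines, capitals mark the bases of CDR1 at which TRBV12-2 and TRBV13-2 differ, and the composite has the letters of TRBV13-2 in all 1629 of its contigs.
CDR1 of TRBV12-2: TCtGGAcaTCTcTCT
CDR1 of TRBV13-2: AAtAACcaCAAcAAC
CDR1 of the composite: AAtAACcaCAAcAAC

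The members lie in their loci on build GRCm38, chromosome 14 for Trav and chromosome 6 for Trbv. Among those the results turn on, Trav16n lies at chr14:53351028-53351621, Trav16 at chr14:53743104-53743705, Trav16d-dv11 at chr14:53047287-53047821 and Trbv12-1 at chr6:41113550-41114067, all annotated as V genes on the plus strand. Of the 163 genes, 33 are annotated as pseudogenes. The contigs never named 54 genes, and 32 of those were pseudogenes.

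The libraries cko replicate 1 and cko replicate 3 carried the same clones. In CD8 cells they shared 77 paired receptors with identical V and J names and CDR3 nucleotides, which held 92.9% of the paired cells of replicate 1 and 79.5% of those of replicate 3. Conventional CD4 cells of the pair shared 33 receptors and Tregs 22. Every other pair of samples shared 0 or 1 receptor in a class. Cells of the 2 libraries were not the same cells, since 17 barcodes of receptor-bearing cells were in both and 1 of these had the same receptor, and other pairs of libraries shared 4 to 20 such barcodes. The labels do not say whether the 2 libraries came from 1 animal, so the cko group may hold fewer than 3 independent samples, and p-values that take it as 3 may be too small. Several counts below are also given with these libraries added together, with shared clonotypes counted once in counts by clonotypes. Tests by cells were not repeated in this way.

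The gated classes carried the markers of their names. Cd3e was found in 98.4% to 99.95% of CD8 cells by sample, in 93.9% to 99.2% of conventional CD4 cells and in at least 97.3% of Tregs. Foxp3 had a UMI in 36.0% to 49.5% of gated Tregs, and most of these cells entered through Il2ra and Ikzf2 together. Of the Treg markers the gate did not use, Tnfrsf4 was found in 91.9% to 98.1% of Tregs against 53.3% to 78.8% of conventional CD4 cells, and Ikzf4 in 29.1% to 50.2% against 3.72% to 9.09%. Among conventional CD4 markers, Cd40lg, the helper T cell ligand, was found in 45.5% to 70.2% of these cells and 8.81% to 26.3% of Tregs. Tcf7 was in 34.1% to 58.4% against 2.67% to 24.7%. Cd28 (72.05% to 89.1% against 74.8% to 89.9%) and Il7r (42.4% to 73.4% against 56.1% to 68.2%) did not separate them. Of the CD8 markers outside the gate, Nkg7 was in at least 98.5% of CD8 cells. It was also in 25.3% to 51.5% of conventional CD4 cells and 36.6% to 60.5% of Tregs. Ccl5 was in at least 77.65% of CD8 cells and Gzmk in 38.9% to 50.4%, each above all samples of the other classes. The summed level of 7 macrophage genes, in CPM (counts scaled to a common library total), was 86.8 to 2056 in conventional CD4 cells of ctr and 164.9 to 352 in those of cko. In Tregs it was 189 to 434 CPM in ctr and 45.8 to 246 CPM in cko, and its part in the results was not tested. Of 3 tumour epithelial genes, Krt8 was at 0 in all classes, whereas Epcam was found in 2.08% to 11.3% of Tregs, 1.06% to 4.005% of CD8 cells and 0.437% to 1.53% of conventional CD4 cells, and Krt18 in at most 4.0% of any class. Their summed level in Tregs was 5.12 to 16.9 CPM in ctr and 15.3 to 18.9 CPM in cko, and its part in the results was not tested.

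Ctcf, the gene targeted in Tregs, had Treg levels of 77.8, 84.6 and 95.4 CPM in the control samples and 55.0, 79.5 and 70.2 CPM in the knockout samples, in replicate order, so the groups overlapped. In CD8 cells its level was 69.7 ± 2.53 CPM in ctr and 86.7 ± 5.23 CPM in cko (SD, n = 3 each). Which exons were removed is not stated, and reads from the 5′ end need not cover them.

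Clonotype numbers set the precision of what follows. The gated cells held 3321 clonotypes, counted per sample, and 90 of them had cells in more than 1 class. A sample held 155 to 292 CD8 clonotypes, 64 to 236 conventional CD4 clonotypes and 91 to 197 Treg clonotypes. Contigs rested on a median of 5 to 12 UMIs for the alpha chain and 9 to 26 UMIs for the beta chain by sample and class.

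The most used alpha segments over the 3 classes were TRAV16N, TRAV6-6, TRAV6N-7, TRAV3D-3, TRAV12-2, TRAV7D-2, TRAV14D-1 and TRAV13-1, each with a mean of 2.61% to 4.37% of TRA clonotypes. The beta repertoire was more concentrated. The composite TRBV12-2+TRBV13-2 led with a mean of 11.7% of TRB clonotypes, followed by TRBV13-1 (8.54%), TRBV5 (7.67%), TRBV19 (7.43%), TRBV3 (6.88%), TRBV1 (6.58%), TRBV2 (5.67%) and TRBV16 (5.50%). The composite led in all 3 classes, with 10.3% ± 3.29 of CD8, 11.5% ± 2.90 of conventional CD4 and 13.2% ± 2.64 of Treg clonotypes (SD, n = 6 samples).

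CD8 and conventional CD4 T cells of the same tumours used different V segments. The comparison was made within samples, with the sample as a block and clonotypes as the count. Of 85 segments tested, 26 differed (edgeR quasi-likelihood test, Benjamini-Hochberg adjusted p under 0.05), which is 30.6%. In CD8 cells 7 TRAV and 5 TRBV segments were higher, and 10 TRAV and 4 TRBV segments were lower. The balance of 12 higher to 14 lower depended on the scaling and the unit: it was 15 to 6 with TMM factors (18 of the 21 among the 26), 10 to 4 with DESeq2 and 5 to 19 by cells (16 of the 24 among the 26). For 20 of the 26, all 6 samples showed the direction of the test.

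The 7 TRAV segments that were higher held 26.1% ± 2.32 of CD8 clonotypes and 5.47% ± 1.54 of conventional CD4 clonotypes (SD, n = 6). The 5 TRBV segments that were higher held 27.0% ± 1.38 and 5.30% ± 1.43. In each of the 6 samples both sums were higher in CD8 cells, with CD8 values from 23.4% to 29.3% for TRAV and from 25.6% to 29.4% for TRBV. Because the segments were chosen by their difference, these sums describe its size and are no test. Tregs, which the choice did not use, stood at 7.29% ± 2.11 for the TRAV sum and 6.05% ± 2.04 for the TRBV sum.

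By clonotypes, TRAV16N was the most used alpha segment of CD8 cells. It took 12.2%, 7.59% and 8.95% of CD8 clonotypes in ctr replicates 1 to 3 and 12.2%, 7.20% and 11.0% in cko replicates 1 to 3. In conventional CD4 cells it took 1.84%, 1.61% and 2.19% in ctr and 0%, 2.75% and 1.15% in cko. The lowest CD8 sample was therefore above the highest conventional CD4 sample. The difference was 2.51 on the log2 scale (SE 0.36, edgeR adjusted p = 1.01e-09, higher in 6 of 6 samples). The other copies moved the same way, TRAV16 by 2.29 (SE 0.57, higher in 5 of 6 samples) and TRAV16D-DV11 by 2.28 (SE 0.64, 6 of 6). Together the 3 copies held 13.1% to 19.3% of CD8 clonotypes, 0.662% to 6.45% of conventional CD4 clonotypes and 0.971% to 5.43% of Treg clonotypes.

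TRBV12-1 had the largest log2 difference among the beta segments. It took 5.93%, 5.23% and 5.51% of CD8 clonotypes in ctr replicates 1 to 3 and 5.75%, 6.14% and 7.12% in cko replicates 1 to 3, a narrow range. In conventional CD4 cells it took 0%, 1.61% and 0.535% in ctr and 0%, 0.870% and 0% in cko, 4 clonotypes in all. The difference was 3.62 (SE 0.56, edgeR adjusted p = 1.1e-08, higher in 6 of 6 samples). TRBV29 took 6.44% ± 1.77 of CD8 and 1.08% ± 0.798 of conventional CD4 clonotypes, a difference of 2.44 (SE 0.44, adjusted p = 1.54e-06). TRBV17 (1.99), TRBV12-2 (1.85) and TRBV14 (1.65) were the other beta segments that were higher.

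Among the remaining alpha segments that were higher in CD8 cells, TRAV9D-3 took 0.690% to 3.66% of CD8 clonotypes and 0% to 1.33% of conventional CD4 clonotypes (log2 difference 2.80, SE 0.62). TRAV8D-2 took 0.508% to 3.45% against 0% to 0.546% (2.74, SE 0.71). TRAV12-2, a common segment in both, took 2.65% to 7.59% against 0.917% to 2.73% (1.29, SE 0.43). TRAV2 had 11 of 1347 CD8 clonotypes and 0 of 897 in conventional CD4 cells. With 3 clonotypes as the limit that a count of 0 allows over the class, its observed CD8 share was 2.44 times that limit. This ratio pools the samples and leaves out the counting error of the CD8 clonotypes. In 2 samples no TRAV2 clonotype was found in either class.

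Conventional CD4 cells used other segments more. TRAV4D-4 took 5.51%, 4.84% and 1.64% of their clonotypes in ctr replicates 1 to 3 and 5.96%, 4.59% and 4.02% in cko replicates 1 to 3. In CD8 cells it took 1.26%, 2.07% and 0.778% in ctr and 1.02%, 0.379% and 0% in cko. The ranges overlapped through ctr replicate 3 of the CD4 cells, and the CD8 share was lower in all 6 samples (log2 difference -2.34, SE 0.51, edgeR adjusted p = 0.000102). TRBV26 took 3.97% to 9.09% of conventional CD4 and 1.44% to 3.27% of CD8 clonotypes, without overlap (-1.63, SE 0.37). TRAV10 took 1.61% to 5.46% against 0.690% to 1.17%, also without overlap (-1.95, SE 0.49), and TRAV4-3 took 1.33% to 2.73% against 0% to 0.813% (-1.85, SE 0.56). TRAV9-1 took 1.33% to 3.45% against 0% to 1.22% (-2.04, SE 0.49). TRAV5-4 (-1.60), TRAV14D-3-DV8 (-1.81), TRAV7-6 (-2.27), TRAV13D-2 (-1.37), TRAV14D-1 (-1.32) and TRAV5D-4 (-1.32) were lower in CD8 cells too. Of the beta segments, TRBV31 (-1.30), TRBV2 (-1.13) and TRBV3 (-0.73) differed by less. TRBV14, TRBV31 and TRAV13D-2, and in later comparisons TRAV14-2, TRAV3-3, TRBV10 and TRAV12D-2, fall outside the naming rule and are named after their values were seen.

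**Figure D1:**
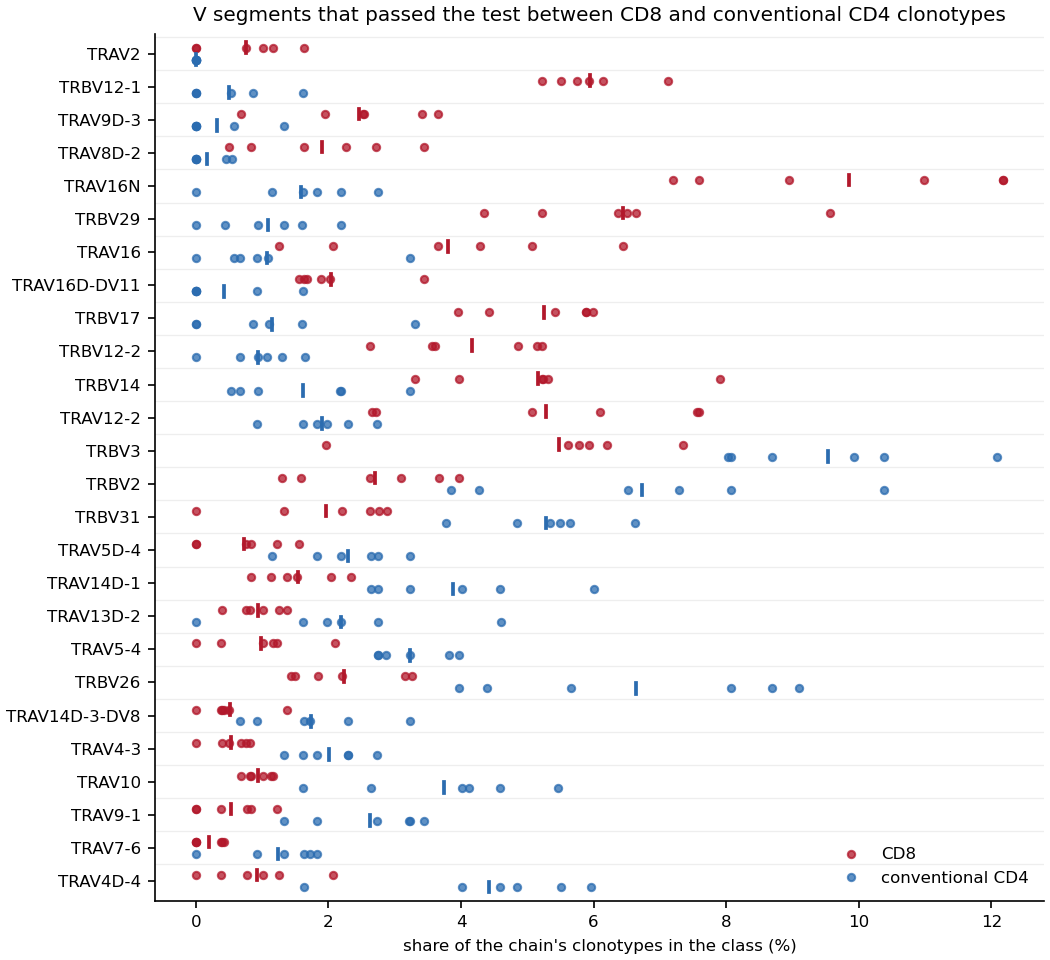
Share of the chain's clonotypes (x axis, percent) of the 26 V segments that passed the test between CD8 (red) and conventional CD4 cells (blue), ordered by log2 difference. Points are the 6 samples and vertical marks their means, and the CD8 points of TRAV16N, TRBV12-1, TRBV29 and TRBV17 lie above all conventional CD4 points of the same segment.

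The test was repeated with other ways of counting. Without chains that joined a TRAV16 copy to TRAJ43 or TRBV12-1 to TRBJ2-5, 28 segments were called, among them all 26. With segments of the same CDR1 and CDR2 counted as one, 26 of 72 were called, 24 of them among the 26. With cko replicates 1 and 3 added together, 22 were called, all among the 26. DESeq2 called 14, all among the 26, and the ctr samples alone gave 6 of 60.

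Tregs and conventional CD4 cells of the same tumours were not told apart by single V segments. Of 75 segments, 0 passed (0% called, edgeR quasi-likelihood test), 5 had an unadjusted p under 0.05, and the smallest adjusted p was 0.158. DESeq2 called 0 as well. TRAV4D-4 was lower in Tregs in 6 of 6 samples (log2 difference -1.34, SE 0.45, adjusted p = 0.158). TRBV3 was lower in 6 of 6 samples (-0.72, SE 0.23, 0.158), with 5.65% ± 1.69 of Treg against 9.53% ± 1.58 of conventional CD4 clonotypes. TRBV12-2 was higher in 6 of 6 (1.29, SE 0.53, edgeR adjusted p = 0.232). TRBV1 took 9.33% ± 2.53 of Treg and 6.41% ± 1.78 of conventional CD4 clonotypes (0.69, SE 0.23, edgeR adjusted p = 0.158) and was higher in 4 of 6 samples. TRBV3 passed when cells were counted in place of clonotypes. TRAV14-2 (-1.28, SE 0.52, edgeR adjusted p = 0.232 with all samples) was the 1 segment that passed when cko replicate 2 was left out.

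The comparison of genotypes asks whether the segments used by tumour T cells differed when Ctcf was lost in Tregs. By clonotypes, 0 segments passed in any class. In CD8 cells 0 of 65 passed (0% called), 8 had an unadjusted p under 0.05, and the smallest adjusted p was 0.15 (edgeR). In conventional CD4 cells 0 of 56 passed (0%), with 4 under 0.05 unadjusted and a smallest adjusted p of 0.502. In Tregs 0 of 54 passed (0%), with 6 under 0.05 unadjusted and a smallest adjusted p of 0.214. DESeq2 called 0 in each class. The median standard error was 0.54 log2 units in CD8 cells, 0.56 in conventional CD4 cells and 0.70 in Tregs, so small shifts were not detectable at these clonotype numbers.

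TRBV5 and TRAV6-6 came nearest in CD8 cells. TRBV5 took 8.30%, 8.50% and 9.93% of CD8 clonotypes in ctr replicates 1 to 3 and 4.42%, 4.33% and 4.87% in cko replicates 1 to 3. Its log2 difference was -0.97 (SE 0.29, edgeR adjusted p = 0.15). TRAV6-6 took 2.52%, 2.76% and 3.11% in ctr and 11.2%, 3.41% and 7.32% in cko (log2 difference 1.30, SE 0.43, edgeR adjusted p = 0.192). The high values were those of cko replicates 1 and 3, which shared clones. In conventional CD4 cells TRBV5 stood at 8.10% ± 1.54 in ctr and 8.88% ± 0.400 in cko. TRBV5 and TRAV6-6 both passed in CD8 cells when only CD8 cells with at least 3000 UMIs were used, together with TRBV20, and TRAV6-6 also passed when all productive contigs were counted and without cko replicate 2. Without ctr replicate 2, TRBV5 and TRAV3-3 passed, and without ctr replicate 1, TRBV20. With cko replicates 1 and 3 added together 0 passed in each class.

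In Tregs, the cells in which Ctcf was targeted, the nearest were TRAV5-4, TRAV4-4-DV10, TRBV10 and TRAV7D-2. TRAV5-4 took 2.21%, 1.63% and 1.04% of Treg clonotypes in ctr replicates 1 to 3 and 3.61%, 4.79% and 5.83% in cko replicates 1 to 3 (log2 difference 1.53, SE 0.57, edgeR adjusted p = 0.214). TRBV10 took 1.13%, 1.68% and 2.09% in ctr and 4.94%, 5.33% and 3.51% in cko (1.45, SE 0.57, edgeR adjusted p = 0.214). TRAV7D-2 took 6.63%, 4.89% and 6.77% in ctr and 2.41%, 2.74% and 2.91% in cko (-1.15, SE 0.44, edgeR adjusted p = 0.272), and it was the 1 segment that passed with TMM factors. The shares of these 3 segments rest on 2 to 13 clonotypes a sample. TRAV4-4-DV10 had a log2 difference of 2.20 (SE 0.85, edgeR adjusted p = 0.214). The genotype difference was also not shown to differ between classes: 0 of 85 segments passed between CD8 and conventional CD4 cells and 0 of 75 between Tregs and conventional CD4 cells (0% called in both), with 8 and 4 at an unadjusted p under 0.05 and 0 called by DESeq2.

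**Figure D2:**
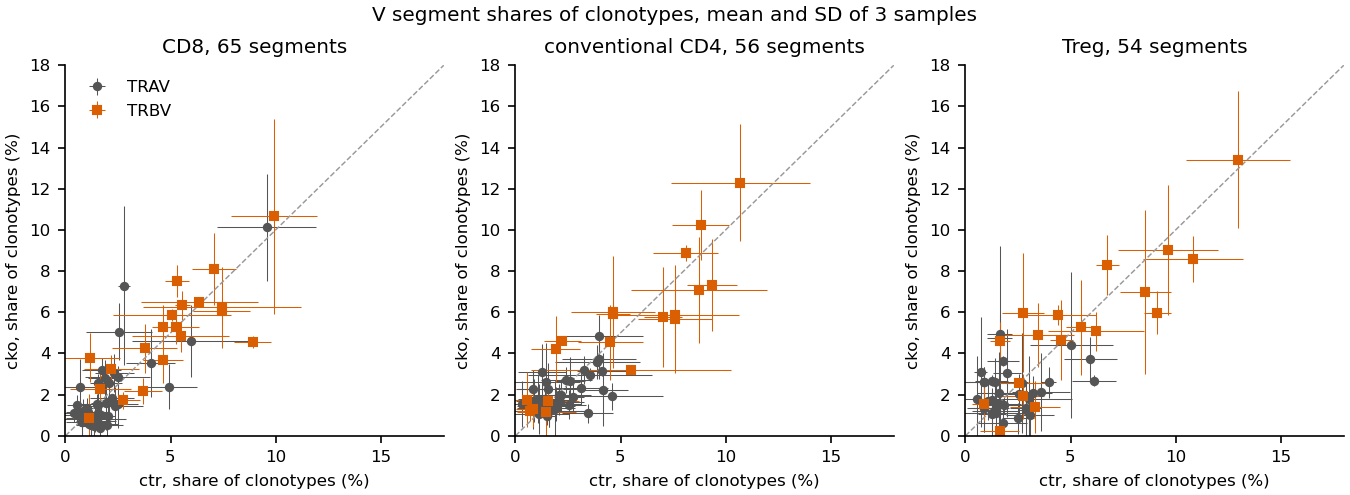
Share of clonotypes in cko (y axis, percent) against ctr (x axis, percent) of each V segment tested, in CD8, conventional CD4 and Treg cells. Points are means of 3 samples with SD bars, and 0 segments passed the test in any of the 3 panels.

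Counting cells in place of clonotypes moved individual segments far. TRAV16 took 1.09%, 1.98% and 1.02% of CD8 cells in ctr replicates 1 to 3 and 53.6%, 5.80% and 46.7% in cko replicates 1 to 3, whereas its share of clonotypes was 1.26%, 2.07% and 4.28% in ctr and 5.08%, 6.44% and 3.66% in cko. By cells it passed the genotype test, and so did TRAV10D, which was the alpha segment of 41, 28 and 52 CD8 cells in ctr and none in cko. The test by cells took cko replicates 1 and 3, which shared clones, as independent samples and was not repeated with them added together. TRAV10D cells came from 9 of 640 clonotypes in ctr, between 2 and 4 in each sample, against 0 of 707 in cko. With 3 clonotypes as the limit over the cko group, the observed ctr share was 3.31 times that limit. This ratio likewise pools the samples and leaves out the counting error of the ctr clonotypes. TRBV3 took 33.25% of CD8 cells in ctr replicate 2 and 1.55% to 3.61% in the other samples, and TRAV4D-4 took 15.5% in ctr replicate 1 and at most 0.396% elsewhere. Both segments were among those lower in CD8 than in conventional CD4 clonotypes.

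The breadth of usage was summarised by the effective number of segments, the exponential of the Shannon entropy, which is the number of equally used segments with the same evenness. By clonotypes it was 44.5 ± 4.08 TRAV segments in CD8 cells of ctr and 42.5 ± 6.18 in cko (SD, n = 3 each). In conventional CD4 cells it was 43.0, 33.3 and 44.3 in ctr replicates 1 to 3 and 48.3, 50.5 and 53.1 in cko replicates 1 to 3, without overlap. In Tregs it was 45.5, 45.7 and 44.6 in ctr and 38.3, 44.2 and 39.3 in cko, also without overlap. Both differences had p = 0.1 in an exact two-sided permutation test, the smallest p that 3 samples against 3 allow, and 0.3 after adjustment over 6 comparisons. This test took cko replicates 1 and 3 as independent samples. With these added together, the Treg difference went from -4.68 to 0.215 (exact permutation p = 0.8), and the conventional CD4 difference from 10.4 to 12.5 (exact p = 0.1). Conventional CD4 clonotypes numbered 113, 64 and 195 in ctr and 157, 236 and 190 in cko, and Treg clonotypes 189, 187 and 197 in ctr and 91, 165 and 120 in cko. The part of these numbers in the differences was not tested. For TRBV the 6 group means lay between 15.2 and 17.9, with exact p of 0.4 to 0.8. By cells, the effective number of CD8 TRAV segments was 7.64 to 24.6.

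Position along the Trav cluster was read from the annotation, with the 128 Trav genes ordered from the 5′ end and split into distal (42 genes), middle (43) and proximal (43) groups, proximal being nearest to the Traj segments. Proximal segments held 40.2% ± 2.31 of CD8 TRA clonotypes in ctr and 43.0% ± 3.19 in cko (SD, n = 3 each), 50.0% ± 3.58 and 47.6% ± 4.21 of conventional CD4 clonotypes, and 46.7% ± 2.24 and 47.6% ± 7.51 of Treg clonotypes. Exact permutation p-values were 0.4, 0.5 and 0.9. The proximal share of cells ranged from 21.2% to 78.5% among CD8 samples, with the high values in ctr replicate 2 (57.7%) and cko replicates 1 and 3 (78.5% and 72.8%).

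V and J choice went together along the locus. Clonotypes with a distal segment joined Traj genes of median rank 40 among 60 from the 5′ end (965 clonotypes, quartiles 31 and 49), those with a middle segment rank 38 (753, quartiles 25 and 47), and those with a proximal segment rank 25 (1415, quartiles 14 and 35). The order of distal above proximal held in each class, with medians of 40 and 28 in CD8 cells, 41 and 24 in conventional CD4 cells, and 39 and 25 in Tregs. These counts pool the samples and are a description.

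**Figure D3:**
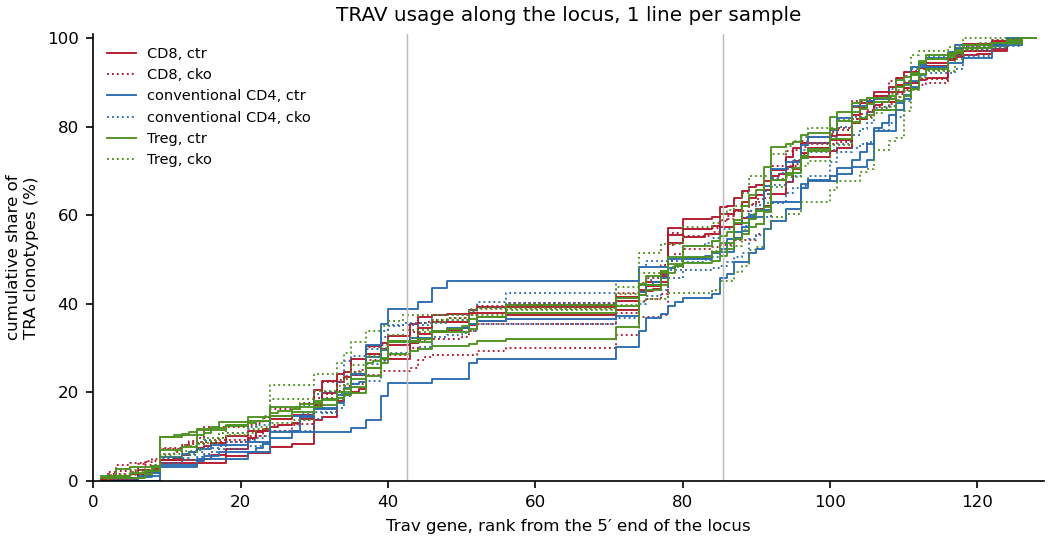
Cumulative share of TRA clonotypes (y axis, percent) over the 128 Trav genes ordered from the 5′ end (x axis, rank), with 1 line per sample, solid for ctr and dotted for cko, coloured by class. Grey lines part the distal, middle and proximal genes, and the rise after the second grey line is the proximal share, with group means from 40.2% to 50.0%.

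The recurrent CD8 receptor shown at the start accounted for the largest gap between cells and clonotypes. Paired cells with both of its translated CDR3s numbered 189, 33 and 3 in ctr replicates 1 to 3 and 1026, 62 and 853 in cko replicates 1 to 3, and all 2166 lay in the CD8 gate. Its beta chain took 13.0%, 7.79% and 0.326% of CD8 TRB cells in ctr and 54.7%, 4.53% and 47.7% in cko. The Wilson 95% interval was 52.6% to 56.8% in cko replicate 1 and 3.55% to 5.76% in cko replicate 2, and these intervals cover counting error only. By clonotypes the same chain took 1.98%, 0.654% and 0.368% in ctr and 2.65%, 1.08% and 3.00% in cko, with intervals that overlapped among all samples. These shares rest on 5, 1 and 1 clonotypes in ctr and 6, 3 and 8 in cko. The nucleotide versions numbered 2, 1 and 1 in ctr and 3, 1 and 3 in cko. Several clonotypes of a sample can thus hold the same rearrangement, so clone size can still enter these shares. High shares by cells were those of the 2 cko libraries that shared clones, and cko replicate 2 was below ctr replicates 1 and 2.

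The beta chain was found in none of the gated CD4 cells, 64 to 290 conventional CD4 and 126 to 345 Treg TRB cells a sample, and 0 of 64 cells, the smallest sample, allows a share of up to 4.69%. The alpha chain took 12.9%, 4.35% and 15.8% of CD8 TRA cells in ctr and 54.0%, 4.75% and 46.3% in cko. In ctr replicate 3 it went with the other TRBV12-1 beta chain, which was found in 185 CD8 cells of that sample. The receptor was chosen for its recurrence, so its shares are a description with no test.

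**Figure D4:**
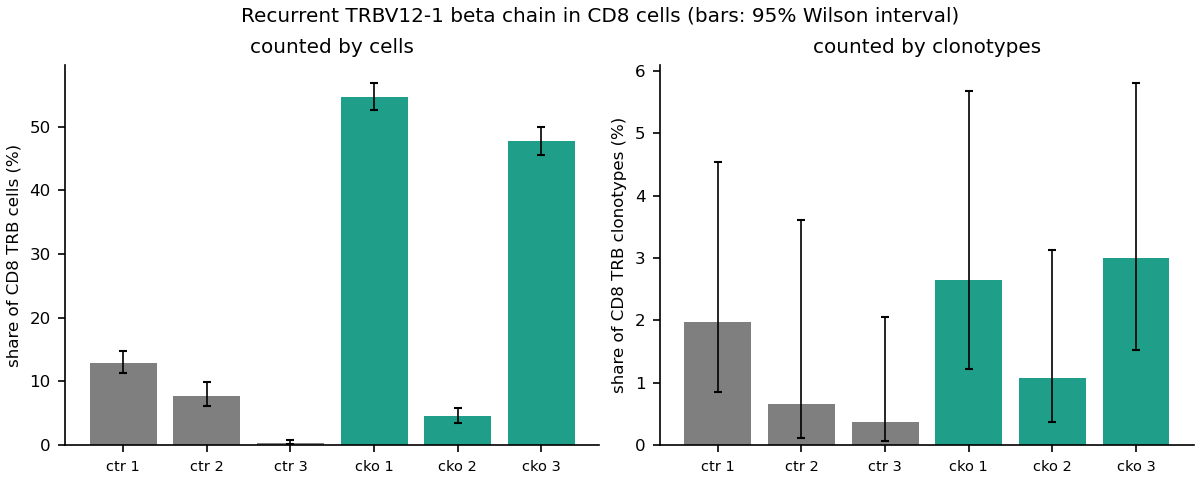
Share of the recurrent TRBV12-1 beta chain in CD8 cells of each sample (bars, percent), by TRB cells on the left and by TRB clonotypes on the right, grey for ctr and green for cko, with Wilson 95% intervals. The cell shares of cko replicates 1 and 3 reach 54.7% and 47.7%, whereas the clonotype shares of all 6 samples lie between 0.368% and 3.00%.

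Other receptors recurred between tumours, with cko replicates 1 and 3 taken as 1 unit among 5. Of 2700 pairs of translated CDR3s in gated cells, 32 were found in at least 2 units and 9 in at least 3. All 32 had more than 1 nucleotide version over their cells, and 7 had identical nucleotides of both chains in at least 2 units. CD8 cells led 9 pairs, Tregs 17 and conventional CD4 cells 6, among 8369, 1335 and 1156 paired cells of these classes. The conventional CD4 count includes a tie, a pair with 1 conventional CD4 and 1 Treg cell. The 32 pairs held 2755 of 10860 paired cells, most of them in the receptor above. A TRAV16 copy was in 6 of the 32. Such copies held 13.1% to 19.3% of CD8, 0.662% to 6.45% of conventional CD4 and 0.971% to 5.43% of Treg clonotypes by sample. Counts of pairs by segment are a description with no test. One of the 6 pairs, in 142 CD8 cells of ctr replicates 2 and 3 and cko replicates 1 and 3, joined TRAV16D-DV11 or TRAV16N with TRAJ12 to TRBV17 with TRBJ2-2. Another recurrent pair, in 93 CD8 cells of 4 samples, joined TRAV12D-2 with TRAJ21 to TRBV13-2, or its composite name, with TRBJ2-7.

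TRBV1, with a mean of 6.58% of TRB clonotypes over the 3 classes, was in 5 of the recurrent pairs, 4 of them led by Tregs. In 3 of these it was joined to TRBJ2-3 and paired with TRAV6N-7 and TRAJ23. One translated alpha and 1 translated beta chain of that family are shown, because their nucleotide versions differed between tumours, in 2 of 3 alpha and 3 of 8 beta versions with capitals at the bases that varied.
Treg alpha in ctr replicates 1 to 3 and cko replicate 3: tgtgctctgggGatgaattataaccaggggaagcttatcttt
Treg alpha in ctr replicates 2 and 3: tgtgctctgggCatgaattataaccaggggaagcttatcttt
Treg beta in ctr replicates 1 and 2: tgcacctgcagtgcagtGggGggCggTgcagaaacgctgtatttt
Same beta chain in ctr replicate 1 and in a conventional CD4 cell of cko replicate 1: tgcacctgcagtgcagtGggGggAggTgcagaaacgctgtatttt
Treg beta in ctr replicate 3: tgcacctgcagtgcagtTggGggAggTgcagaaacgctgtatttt

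The alpha chain took 2.28%, 5.74% and 3.17% of Treg TRA cells in ctr replicates 1 to 3 and 0%, 0% and 1.29% in cko replicates 1 to 3. In cko replicate 1, 0 of 128 cells allows a share of up to 2.34%, and in cko replicate 2, 0 of 164 allows up to 1.83%. By clonotypes it took 2.21%, 1.09% and 1.56% in ctr and 0%, 0% and 1.94% in cko, so the groups overlapped. It was also found in 1 conventional CD4 cell each of ctr replicates 1 and 3. No CD8 cell carried it, and 0 of 758 cells, the smallest sample, allows a share of up to 0.396%.

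The 3 largest clonotypes of each sample were all CD8, 18 in all, and 7 of them used a TRAV16 copy and 6 used TRBV12-1. Clones shared by cko replicates 1 and 3 are counted in both, as the largest clonotype of each had the same CDR3 nucleotides in both chains. The clonotype with TRAV7-5 and TRBV12-2 was in both lists too. By sample, TRAV16 copies held 13.1% to 19.3% of all CD8 clonotypes, and the CD8 shares of TRBV12-1 are given above. The largest clonotype held 12.5%, 21.7% and 8.03% of all gated cells in ctr replicates 1 to 3 and 41.95%, 7.42% and 31.5% in cko replicates 1 to 3. It joined TRAV4D-4 to TRBV5 in ctr replicate 1, TRAV4-4-DV10 to TRBV3 in ctr replicate 2, TRAV16N to TRBV12-1 in ctr replicate 3, TRAV16 to TRBV12-1 in cko replicates 1 and 3, and TRAV2 to TRBV20 in cko replicate 2. The others used TRAV12-2 with TRBV19, TRAV16D-DV11 with TRBV17, TRAV9D-3 with TRBV19, TRAV9N-4 or TRAV5D-4 with the composite TRBV12-2+TRBV13-2, TRAV6-6 with TRBV13-1, TRAV7-5 with TRBV12-2 and TRAV16N with TRBV19, besides the recurrent receptor. In cko replicate 3, 1 of the 3 had the recurrent beta chain without an alpha contig, so a receptor can be split over several clonotypes.

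TRAV11 and TRAV1 form the invariant alpha chains of NKT cells and MAIT cells, which recognise lipids and vitamin B metabolites. TRAV11 joined to TRAJ18, the NKT chain, was found in 2 gated cells, both conventional CD4 cells of cko replicate 3 and of different clonotypes. TRAV1 joined to TRAJ33, the MAIT chain, was found in 1 gated cell, a CD8 cell of ctr replicate 1. With other Traj genes, TRAV11 was found in 1 CD8 and 1 Treg cell, and neither segment reached the number needed for a test. These counts cover gated cells only, and the gates left out 1501 receptor-bearing cells without Cd4 and Cd8 UMIs. Regardless of the gates, TRAV11 was in at least 1, 3 and 4 cells of ctr replicates 1 to 3. In cko replicates 1 and 3 it was in at least 6 and 5. TRAV1 was in at least 2 and 4 cells of ctr replicates 1 and 3 and 1 and 2 of cko replicates 1 and 2. These numbers are lower bounds and leave out gated cells that joined TRAV1 to other Traj genes. Among those were 4 CD8 cells of cko replicate 3 with TRAJ15 and 2 Tregs of ctr replicate 1 with TRAJ16. In ctr replicate 2, TRAV1 was in 1 CD8 cell with TRAJ23 and 1 Treg with TRAJ27.

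The V genes of the matrix followed the contigs closely for most names. Of gated cells with an alpha contig, 72.7% had a UMI of the named gene, and 84.3% of cells with a beta contig did. Among names with at least 20 cells, the median was 97.4% for 67 TRAV and 99.7% for 22 TRBV names, and in cells with another V name the median share with that gene was 0.491% and 1.14%. Macrophages without a contig had a V gene UMI in 4.14% of 5072 cells (median 9143 UMIs a cell), against 99.7%, 99.1% and 99.1% of CD8, conventional CD4 and Treg cells (7404, 4865 and 6179 UMIs).

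Under 10% of cells carried a UMI of the named gene for 14 TRAV and 2 TRBV names. TRAV6-6, the second most used alpha segment, had its gene in 1.84% of 489 cells, and 57.5% of those cells had no V gene UMI of the alpha locus at all. TRAV4D-4 had its gene in 1.99% of 302 cells and TRAV12D-2 in 2.43% of 288. In 67.55% of the TRAV4D-4 cells the leading alpha V gene was Trav16n. The largest clonotype of ctr replicate 1, with 248 cells, bore the name TRAV4D-4. In that sample 26.9% of CD8 cells had at least 2 productive alpha contigs, and names here follow the contig with most UMIs. TRBV10 cells had Trbv10, annotated as a pseudogene at chr6:41091940-41092228, in 0% of 515 cells, and in 96.1% of them the leading beta V gene was Trbv4 (chr6:41059394-41059886), a name that no contig carried. Cells of the composite name had Trbv13-2 as leading gene in 97.3% of 1099 cells. Levels of these genes in the matrix did not follow the cells that the contigs assigned to them.

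Summed expression of V genes differed between genotypes for few of them. In CD8 cells 4 of 75 V genes passed (5.33%), against 211 of 11702 genes (1.8%, edgeR quasi-likelihood test with TMM factors). Of the 4, 2 were higher in cko, against 1.03% of all genes, and 2 lower, against 0.769%. In conventional CD4 cells 1 of 57 passed, against 0.0479% of all genes (0.024% higher and 0.024% lower). In Tregs 1 of 66 passed, against 0.837% of all genes (0.339% higher and 0.498% lower). The median log2 change of V genes was -0.41, -0.25 and -0.20, beside 0.00, 0.00 and 0.02 for all genes. With cko replicates 1 and 3 added together, 1, 0 and 0 V genes passed.

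Trav13-1 rose in CD8 cells of cko, from 10.0, 7.79 and 18.8 CPM in the 3 ctr samples to 64.3, 69.1 and 56.1 CPM in the 3 cko samples (log2 change 2.33, SE 0.30, edgeR adjusted p = 0.0201, and 0.0886 with cko replicates 1 and 3 added together). In cko replicates 1 and 3, 91.8% and 84.3% of its UMIs lay in cells of 1 clonotype, the one with TRAV16 and TRBV12-1, and only 5.27% and 4.88% in cells with a productive TRAV13-1 contig. In ctr replicate 3, likewise, 5.56% lay in cells with such a contig and 87.9% in 1 clonotype with TRAV9N-4. In ctr replicates 1 and 2 the shares with such a contig were 96.4% and 96.7%. In cko replicate 2, 81.6% of Trav13-1 UMIs lay in cells with such a contig. Its call was lost without ctr replicate 1 (edgeR adjusted p = 0.0601), cko replicate 1 (0.108) or cko replicate 3 (0.0848), without the filter on low genes (0.0613) and with the replicate block (0.0841). By clonotypes TRAV13-1 took 1.87% ± 0.812 in ctr and 2.79% ± 0.904 in cko.

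Trbv4, the matrix gene of cells named TRBV10, stood at 36.7, 28.5 and 33.4 CPM in ctr and 61.9, 64.6 and 64.3 CPM in cko (log2 change 0.91, SE 0.11, edgeR adjusted p = 0.0107, and 0.0542 added together). In cko replicates 1 and 3, 81.2% and 63.1% of its UMIs lay in 1 clonotype with TRAV10 and TRBV10. Without cko replicate 3 the edgeR adjusted p was 0.0677. TRBV10 took 4.66% ± 0.491 of CD8 clonotypes in ctr and 5.26% ± 1.09 in cko (log2 difference 0.21, SE 0.33, edgeR adjusted p = 0.817).

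Trav10d fell in CD8 cells of cko, from 12.9, 22.7 and 21.65 CPM in ctr replicates 1 to 3 to 0.287, 0.357 and 0.0526 CPM in cko replicates 1 to 3, which rest on 5, 5 and 1 UMIs (log2 change -6.40, SE 0.42, edgeR adjusted p = 0.00192, and 0.0133 added together). It was the V gene that passed in both fits. In each ctr sample 1 clonotype held at least 93.3% of its UMIs, with TRBV13-1, TRBV17 and TRBV5 as the beta segments. Trav6-5 fell from 6.14, 3.58 and 8.165 CPM to 0.976, 1.64 and 1.74 CPM (-2.09, SE 0.34, edgeR adjusted p = 0.0239, and 0.0838 added together), on 17 to 86 UMIs a sample, and in ctr replicate 3 a clonotype with TRAV13-2 and TRBV5 contigs held 80.2% of them. Its call was lost without ctr replicates 1 (0.06) or 3 (0.0929) or cko replicates 1 (0.088) or 3 (0.105), as edgeR adjusted p.

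Trav16 was the V gene that passed in conventional CD4 cells, with 24.7, 16.8 and 22.9 CPM in ctr and 1.30, 3.35 and 2.61 CPM in cko (log2 change -3.12, SE 0.41, edgeR adjusted p = 0.0177, and 0.0863 added together). These levels rest on 2 to 24 UMIs a sample, and the call was lost without ctr replicates 1 (edgeR adjusted p = 0.0598) or 3 (0.163) or cko replicates 1 (0.166) or 3 (0.131). Trav9-4 was the one that passed in Tregs, with 23.1, 37.5 and 32.2 CPM in ctr and 14.25, 4.59 and 5.25 CPM in cko (-2.12, SE 0.38, edgeR adjusted p = 0.0408, and 0.0576 added together), on 8 to 110 UMIs spread over 3 to 14 clonotypes a sample. By clonotypes TRAV9-4 took 2.76%, 2.17% and 3.65% of Treg clonotypes in ctr and 2.41%, 0.685% and 0.971% in cko. Its call was lost without ctr replicates 1 (edgeR adjusted p = 0.0653), 2 (0.15) or 3 (0.15) or cko replicate 3 (0.161), and with the replicate block (0.122).

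**Figure D5:**
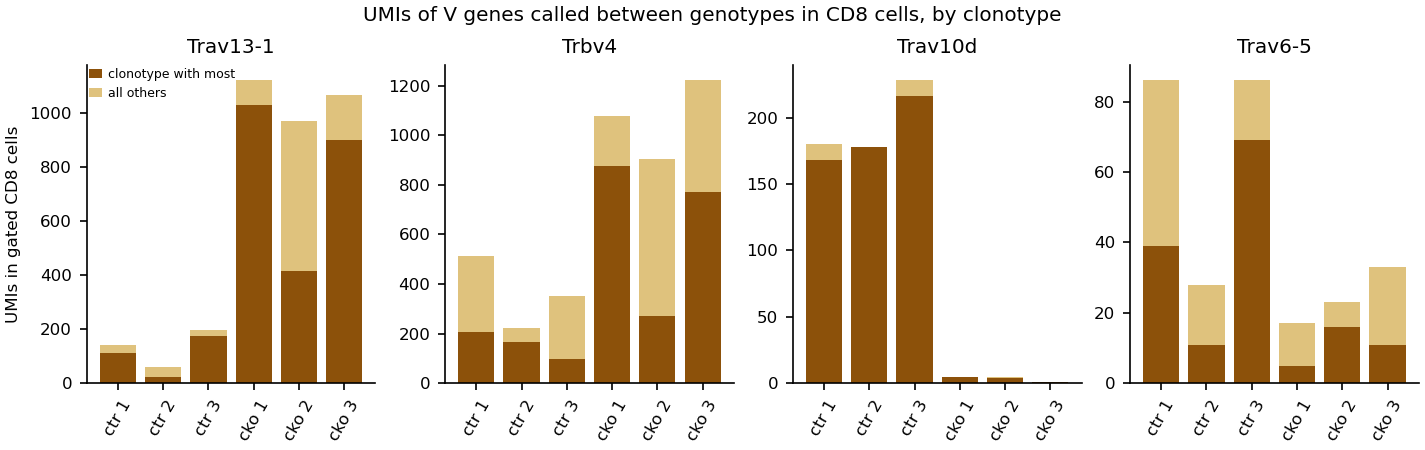
UMIs of the 4 V genes called between genotypes in CD8 cells (y axis, UMIs summed over gated CD8 cells) in each sample, split into the clonotype that held most of them (dark) and all others (light). In cko replicates 1 and 3 most Trav13-1 and Trbv4 UMIs, and in all ctr samples nearly all Trav10d UMIs, belong to 1 clonotype.

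Of 13 genes for constant regions, CD3 chains, co-receptors and proximal kinases, 0 passed among 12 tested in CD8 cells, 10 in conventional CD4 cells and 10 in Tregs (edgeR), with median log2 changes of 0.06, 0.00 and -0.17. Cd247, the CD3 zeta chain, stood at 154 ± 14.0 CPM in CD8 cells of ctr and 210 ± 21.1 CPM in cko (log2 change 0.42, SE 0.11, adjusted p = 0.0917). Of 10 recombination and end-joining genes, 0 passed among 6, 5 and 6 tested. Dclre1c, the nuclease that opens hairpin ends during V(D)J joining, stood at 33.1 ± 2.65 CPM in CD8 cells of ctr and 25.7 ± 1.46 CPM in cko (-0.40, SE 0.10, adjusted p = 0.0867). Changes smaller than the spread between samples were not detectable in either list.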

How the data were processed

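The deposited gene matrices contain unnormalized UMI counts, and the deposited contig tables list receptor contigs with their counts, both made with Cell Ranger 7.0.0 on mm10 (GRCm38) per the submitters' processing notes. The sources used here state no removal of doublets or free RNA. Kept cells had at least 300 genes, 500 UMIs and at most 10% mitochondrial counts. Scrublet's own threshold marked 251 of the 39424 cells that met these limits, so the highest scores were removed at 0.8% per 1000 barcodes (2203 cells). Libraries held 45322797 to 55515267 UMIs.

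All gated cells had a productive contig. CD8 cells had at least 2 UMIs of Cd8a plus Cd8b1 and none of Cd4. CD4 cells had Cd4 and no Cd8 UMI. Among them, Tregs had Foxp3, or both Il2ra and Ikzf2, and conventional cells none of the 3. The V segment of a chain was that of the contig with most UMIs. Left out were 1113 CD4 cells between the gates and 2368 others.

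Clonotype counts per segment were tested with edgeR 4.0.16 (quasi-likelihood, robust, offset by the chain's clonotype total, Benjamini-Hochberg over both chains, threshold 0.05, at least 10 clonotypes in all and 1 in 3 libraries). Class and interaction tests had the sample as a block. Summed counts per gene used TMM factors and filterByExpr. Log2 values are fold changes from these fits, with SE the fold change divided by the root of F. DESeq2 1.42.0 was an alternative. The fits were tested on simulated data. Other alternatives were cells in place of clonotypes, other gates, depth, doublet and contig rules, left-out replicates and a replicate block. The members and lists were chosen with earlier results of these data known. Named segments were the 8 most used of each chain, up to 8 per direction past the threshold in each test, TRAV11, TRAV1 and those of the 3 largest clonotypes a sample. Recurrent receptors were chosen after the data were seen.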

Additional observations from a re-analysis of the deposited data

How the results depend on the processing

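Counts of calls by clonotypes changed as follows. The 26 calls between CD8 and conventional CD4 cells became 14 with DESeq2, 6 in ctr samples only, and 21 to 25 without 1 replicate. The 0 calls between Tregs and conventional CD4 cells became 1 by cells and 0 to 1 without 1 replicate. The 0 genotype calls in CD8 cells became 1 with all productive contigs, 2 by cells, 3 in cells with at least 3000 UMIs, and 0 to 2 without 1 replicate. Those in conventional CD4 cells became 2 by cells and those in Tregs 1 with TMM factors. The interaction between CD8 and conventional CD4 cells gave 3 by cells and 0 to 2 without 1 replicate. V gene calls by expression were less stable. With DESeq2 they became 7 in CD8, 3 in conventional CD4 and 6 in Treg cells, and without a filter on low genes 2 in conventional CD4 and 4 in Treg cells. With cko replicates 1 and 3 added together they became 1, 0 and 0, and without 1 replicate 1 to 8, 0 to 2 and 0 to 4. The cause was not tested.

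Deviations of same-numbered samples correlated at -0.239 to 0.227, which gave no sign that replicate numbers pair the samples. Pairing is not excluded, since it need not show in these deviations. With the replicate block, 0 segments were called by clonotypes between genotypes in each class, and V genes by expression were 6 in CD8, 2 in conventional CD4 and 3 in Treg cells, although Trav13-1 (edgeR adjusted p = 0.0841) and Trav9-4 (0.122) were no longer called.

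Differences without a call changed sign in places. For the effective number of TRAV segments in CD8 cells (-1.95), adding cko replicates 1 and 3 together gave 2.15, and leaving out replicates gave -5.06 to 1.12. In Tregs (-4.68) the addition gave 0.215. For TRBV in CD8 cells (0.668), cells gave -1.49 and leaving out replicates -0.262 to 1.36. For TRBV in Tregs (0.120), Foxp3 alone gave -0.996, at least 3000 UMIs -0.013, and leaving out replicates -0.223 to 0.495. The proximal share of CD8 cells (2.79 percentage points) became -0.392 with each CDR3 counted once. In Tregs (0.878) it became -2.05 by cells, -5.92 with Foxp3 alone, -0.238 with each CDR3 counted once, and -2.72 to 4.77 without 1 replicate. Counting each CDR3 once, segments of the same loops as one, the composite as TRBV13-2, and leaving out the recurrent V and J joins were chosen after seeing the data.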
